A study of Mus musculus with 4 samples.

Results

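The BCL2 family genes that set the balance between survival and death of a T cell were measured in CD8+ T cells cultured as Tc17 cells or as CTLs (cytotoxic T lymphocytes). The family was taken as 10 named genes, and each was read from the probe set that the platform annotation gives to it alone, the brightest one where there are several. Of these, 9 genes were found among the 19938 genes with a probe set of their own, each with 1 probe set. No annotated probe set named *Bax*, so it has no value here. T cells of wild-type C57BL/6 mice, 8 to 12 weeks old, described as naive, were obtained from spleen and lymph nodes by magnetic negative selection. Tc17 cultures received IL-2, an antibody against IFN-γ, IL-6 and TGF-β, and CTL cultures received IL-2 and the antibody against IFN-γ alone, each for 2 days. The methods describe priming through CD3 and CD28 for Tc17 cells and do not state it for these CTL cultures. Each group had 2 arrays, which the labels name biological replicates. Whether different mice stood behind them is not stated. The p-values therefore rest only on the spread between these samples, largely pooled over all genes, which may be technical. Values are RMA intensities taken as log2, in which 1 unit is a 2-fold difference, and differences are Tc17 minus CTL.

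The arrays matched their labels. *Il17f*, a type 17 cytokine gene, read 9.22 and 8.70 in Tc17 cells, against 2.94 and 3.35 in CTLs. *Ifng*, the gene for IFN-γ, read 5.91 and 6.24 in Tc17 cells, against 10.57 and 10.08 in CTLs. The cultures also differed in T cell genes. Of 5 CD8 T cell markers tested, 4 were higher in Tc17 cells (limma adjusted p under 0.05), against 8.22% of all genes tested. The mean level of these markers was 9.47 and 9.54 on the Tc17 arrays, against 8.77 and 8.85 on the CTL arrays. Of 22 markers of B, myeloid, dendritic, NK, CD4, γδ and erythroid cells, 18 had a probe set and 11 were bright enough to test. Among these only *Foxp3*, a regulatory T cell factor, passed, at 4.14 and 4.23 in Tc17 cells against 3.59 and 3.59 in CTLs. Over all genes tested, 15.7% passed in either direction. The mean level of the 18 markers was 2.96 and 2.90 in Tc17 cells and 2.95 and 2.86 in CTLs. The part of other cells in the results was not tested.

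The proteins of this family meet at the outer membrane of the mitochondrion. BAX and BAK form the pores that release cytochrome c, anti-apoptotic proteins such as BCL2, BCL-XL and MCL1 hold them in check, and the BH3-only proteins, named after the short helix they share, bind and neutralise the anti-apoptotic proteins or switch on the effectors. In T cells, cytokine signals sustain BCL2 and MCL1, and BIM, the BH3-only protein encoded by *Bcl2l11*, is known for removing activated T cells when an immune response ends.

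Tc17 cells carried more *Bcl2l11* and *Mcl1* than CTLs and less *Bcl2*, *Bcl2l1* and *Bid*. *Bcl2l11* was 2.35-fold higher and *Mcl1* 1.57-fold higher, whereas *Bcl2l1* was 2.43-fold, *Bcl2* 1.99-fold and *Bid* 1.78-fold lower. All 9 measured members were bright enough for the test, which was made across 14953 genes with limma and Benjamini-Hochberg adjustment at a threshold of 0.05. Past that threshold, 2 members were higher and 3 lower in Tc17 cells, against 8.22% higher and 7.44% lower among all genes tested (15.7% together), and 4 members did not pass. For 7 of the 9 members every Tc17 array lay on the same side of every CTL array, 3 above and 4 below, against 54.4% of all genes tested (29.6% above and 24.8% below). The median difference was -0.04 over the members and 0.02 over all genes. In these bulk cultures, a lower share of cells with a transcript and less of it per cell cannot be told apart.

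**Figure D1:**
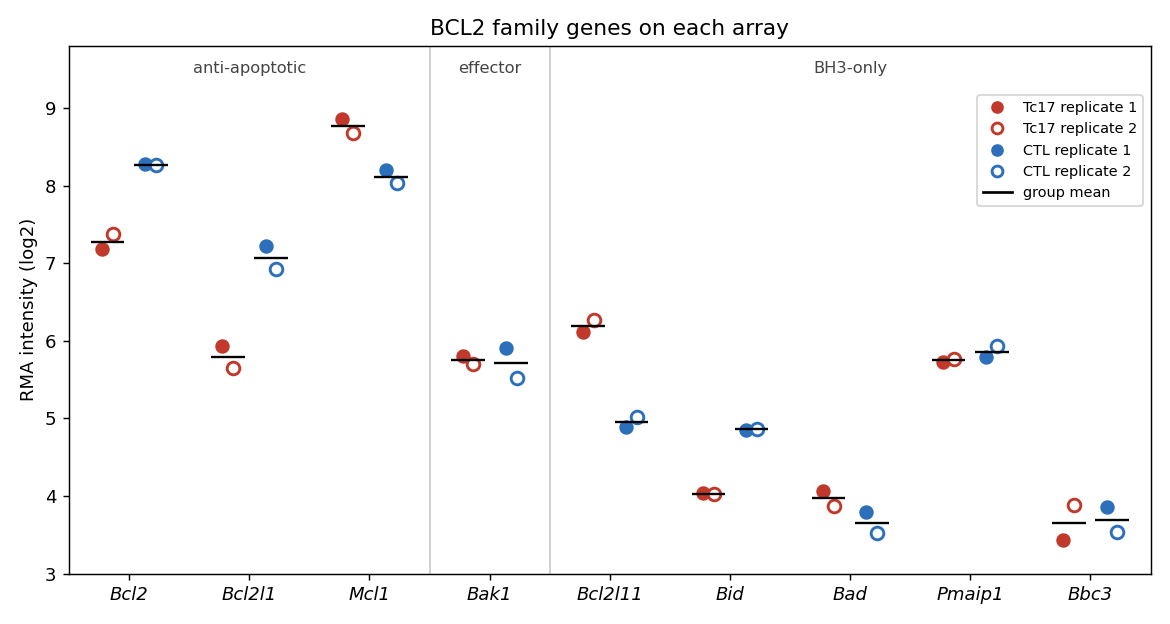
RMA intensity (log2, vertical axis) of the 9 measured BCL2 family genes, grouped by role, on each array. Circles are single arrays, red for Tc17 and blue for CTL, with replicate 1 filled and replicate 2 open, and bars are group means. The red and blue circles stand apart for *Bcl2*, *Bcl2l1*, *Mcl1*, *Bcl2l11* and *Bid* and interleave for *Bak1* and *Bbc3*.

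The anti-apoptotic genes split. *Bcl2* encodes the founding member of the family, which keeps naive and memory T cells alive. It read 7.18 and 7.37 in Tc17 cells, against 8.28 and 8.27 in CTLs. Both Tc17 arrays were low, and the distance of 0.89 between the nearest arrays of the groups exceeded the 0.19 between the Tc17 arrays. The difference was -0.995 ± 0.13 (SE, n = 2 per group, limma adjusted p = 4.44e-04), with a 95% interval from -1.28 to -0.71.

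*Bcl2l1* encodes BCL-XL, an anti-apoptotic protein that T cells make after activation. It had the largest decrease of the family, at 5.94 and 5.64 in Tc17 cells, against 7.22 and 6.92 in CTLs. Every Tc17 array lay at least 0.99 below every CTL array, while arrays of a group lay 0.29 (Tc17) and 0.30 (CTL) apart. The difference was -1.28 ± 0.15 (SE, n = 2 per group, limma adjusted p = 2.29e-04), with a 95% interval from -1.62 to -0.94. The probe set is annotated to the gene and not to a transcript, so its value does not separate the long, protective form from the short, death-promoting form that splicing of this gene can give.

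*Mcl1* went the other way. Its product is a short-lived protein that T cells need at all stages and that binds BIM and BAK. It read 8.86 and 8.68 in Tc17 cells, against 8.20 and 8.03 in CTLs, and the lower Tc17 array lay 0.49 above the higher CTL array. The difference was 0.65 ± 0.13 (SE, n = 2 per group, limma adjusted p = 0.00673), with a 95% interval from 0.36 to 0.95. Its adjusted p ranged from 9.48e-04 to 0.262 over the alternatives, and the call was lost when every row of the table was tested (limma adjusted p = 0.0938) and, as for all members, in a fit without moderation. The 95% interval of *Mcl1* lay wholly above 0 and those of *Bcl2* and *Bcl2l1* wholly below it.

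Of the effectors, only *Bak1* could be read. It encodes BAK, which sits in the mitochondrial membrane of resting cells. *Bak1* read 5.80 and 5.70 in Tc17 cells, against 5.91 and 5.53 in CTLs, so the Tc17 arrays fell between the CTL arrays. The difference was 0.03 ± 0.15 (SE, n = 2 per group, limma adjusted p = 0.931), and its 95% interval from -0.30 to 0.36 leaves room for a change of up to 1.29-fold upward. Its sign changed without Tc17 replicate 1 (-0.02) and without CTL replicate 2 (-0.16).

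Among the 5 BH3-only genes, *Bcl2l11* had the largest increase. Its product BIM binds all the anti-apoptotic proteins and can switch on BAX and BAK directly. *Bcl2l11* read 6.11 and 6.26 in Tc17 cells, against 4.88 and 5.02 in CTLs. Both Tc17 arrays were high, and the smallest of the 4 distances between a Tc17 and a CTL array was 1.09, against 0.15 between the Tc17 arrays and 0.14 between the CTL arrays. The difference was 1.23 ± 0.13 (SE, n = 2 per group, limma adjusted p = 1.06e-04), with a 95% interval from 0.94 to 1.52, or from 1.92-fold to 2.88-fold. Here too, the isoforms that splicing gives were not told apart.

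*Bid*, whose product is cut by caspase-8 and links death receptors to the mitochondrion, moved the opposite way. It read 4.04 and 4.02 in Tc17 cells, against 4.85 and 4.87 in CTLs. The replicates lay 0.015 apart in Tc17 cells and 0.019 apart in CTLs. The difference was -0.83 ± 0.12 (SE, n = 2 per group, limma adjusted p = 0.00103), with a 95% interval from -1.10 to -0.56. The SE is far wider than the spread of these arrays because the fit pools the spread of all genes. Pooling also widened the SE of *Bcl2*, *Mcl1* and *Bcl2l11*. It narrowed that of *Bcl2l1*, from 0.21 in the fit without moderation to 0.15.

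The other BH3-only genes did not pass. *Bad* encodes a protein that binds BCL2 and BCL-XL unless growth factor signals phosphorylate it. It read 4.06 and 3.88 in Tc17 cells, against 3.79 and 3.53 in CTLs. The arrays did not overlap, with a distance of 0.09 between the nearest, but arrays of a group differed by more, and the difference was 0.31 ± 0.14 (SE, n = 2 per group, limma adjusted p = 0.187).

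*Pmaip1* and *Bbc3* encode NOXA and PUMA, BH3-only proteins known as targets of p53. *Pmaip1* read 5.73 and 5.77 in Tc17 cells, against 5.79 and 5.93 in CTLs, a difference of -0.11 ± 0.13 (SE, n = 2 per group, limma adjusted p = 0.662) with a 95% interval from -0.39 to 0.17. *Bbc3* read 3.43 and 3.88 in Tc17 cells, against 3.86 and 3.53 in CTLs. Its groups overlapped, and the difference was -0.04 ± 0.17 (SE, n = 2 per group, limma adjusted p = 0.923), with a 95% interval from -0.42 to 0.34. The sign of *Bbc3* changed without Tc17 replicate 1 (0.19) and without CTL replicate 1 (0.12). *Bad* and *Bbc3* were the dimmest members, close to the median gene level of 3.39, and missing the threshold does not show that their levels were equal. *Bid*, which passed, was the next dimmest, with a mean of 4.44 over the 4 arrays.

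**Figure D2:**
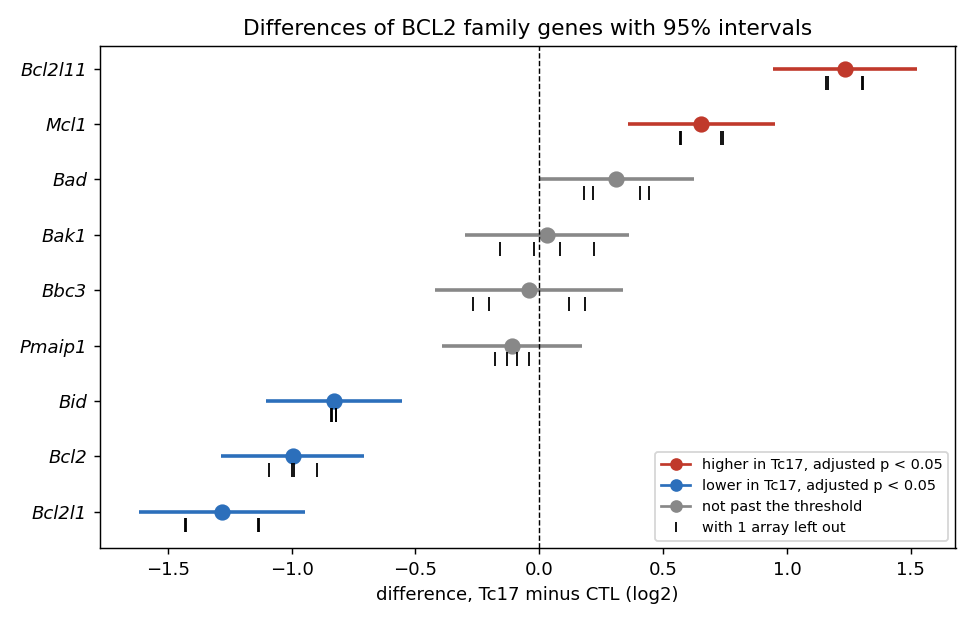
Difference between Tc17 and CTL arrays (log2, horizontal axis) of the 9 measured BCL2 family genes, ordered by size. Circles are the fitted differences and lines their 95% intervals, red for higher and blue for lower in Tc17 cells past the threshold and grey for the rest, and black ticks are the differences with 1 array left out. *Bcl2l11* (1.23) and *Bcl2l1* (-1.28) stand at the ends, and the ticks of *Bak1* and *Bbc3* lie on both sides of 0.

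Whichever of the 4 arrays was left out, all 5 members past the threshold kept their direction and their call. The difference of *Bcl2l11* then lay between 1.16 and 1.31, and that of *Mcl1* between 0.57 and 0.74. For *Bcl2* it lay between -1.09 and -0.90, for *Bcl2l1* between -1.43 and -1.13 and for *Bid* between -0.84 and -0.82. *Mcl1* kept its call only narrowly without Tc17 replicate 1 or without CTL replicate 2. In size, the difference of *Bcl2l1* exceeded that of 98.4% of all genes tested, that of *Bcl2l11* 98.2%, that of *Bcl2* 96.8%, that of *Bid* 94.9% and that of *Mcl1* 91.6%. The others exceeded 73.3% (*Bad*), 36.1% (*Pmaip1*), 14.2% (*Bbc3*) and 11.1% (*Bak1*) of the genes. An absolute difference of at least 1 was found for 3.09% of all genes.

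**Figure D3:**
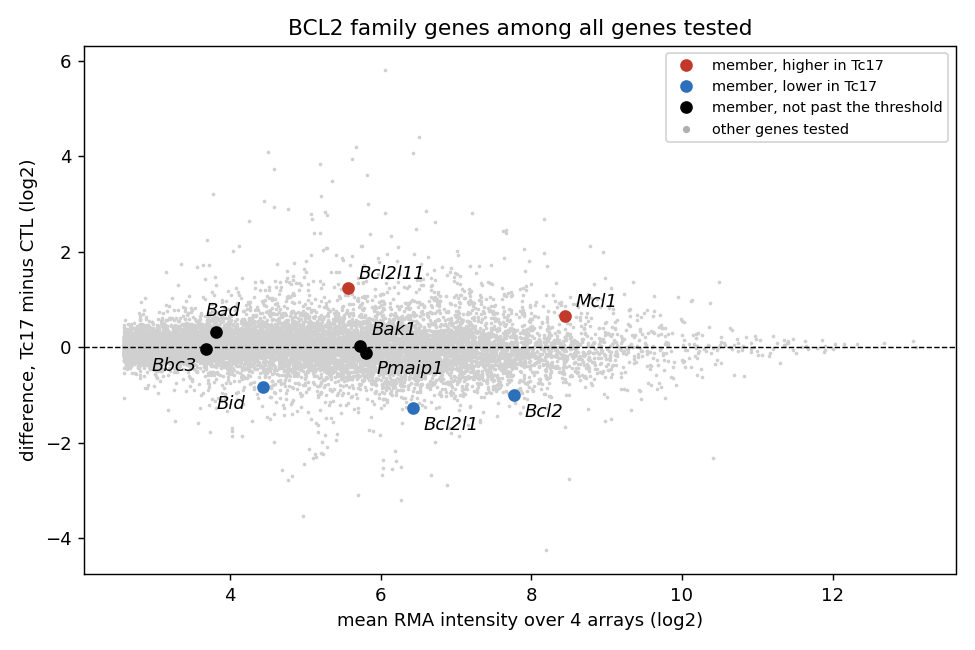
Difference between Tc17 and CTL arrays (log2, vertical axis) against the mean RMA intensity over the 4 arrays (log2, horizontal axis). Grey points are the 14953 genes tested and large circles the 9 measured BCL2 family genes, red for higher, blue for lower and black for not past the threshold. *Bcl2l11* (1.23) lies above and *Bcl2l1* (-1.28), *Bcl2* and *Bid* lie below the bulk of the grey points, while *Bak1* and *Pmaip1* lie within it.

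Promoters are shown for 2 members that rose and 2 that fell, so that their letters can be compared. They are the 250 bases before an annotated start, 5′ to 3′, from RefSeq (GRCm38.p6). Windows were used for 8 of the 9 measured members, 14 in all, since some genes have several starts. No window of *Pmaip1* was used, so its promoter was not searched. Both strands were searched for a FOXO motif (TGTTTAC), a STAT motif (TTCNNNGAA), a SMAD motif (GTCTAGAC) and a GC box (GGGCGG), chosen with the expression values known. No match of one motif overlapped a match of another. Capitals mark the matches, on either strand. The *Bcl2l11* window lies at chr2:128125788-128126037 on the plus strand, the *Mcl1* window at chr3:95658471-95658720 on the plus strand, the *Bcl2* window at chr1:106714291-106714540 on the minus strand and the *Bid* window at chr6:120916825-120917074 on the minus strand.
Bcl2l11: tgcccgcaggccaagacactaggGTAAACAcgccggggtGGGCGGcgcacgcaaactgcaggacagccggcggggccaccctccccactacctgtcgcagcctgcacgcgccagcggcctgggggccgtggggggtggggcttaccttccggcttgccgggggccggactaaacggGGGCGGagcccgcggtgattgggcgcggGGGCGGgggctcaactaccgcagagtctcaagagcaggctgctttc
Mcl1: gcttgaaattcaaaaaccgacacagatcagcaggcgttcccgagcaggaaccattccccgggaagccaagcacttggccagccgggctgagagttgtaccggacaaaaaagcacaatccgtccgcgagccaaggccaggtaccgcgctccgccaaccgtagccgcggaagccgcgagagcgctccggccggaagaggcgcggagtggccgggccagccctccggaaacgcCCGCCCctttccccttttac
Bcl2: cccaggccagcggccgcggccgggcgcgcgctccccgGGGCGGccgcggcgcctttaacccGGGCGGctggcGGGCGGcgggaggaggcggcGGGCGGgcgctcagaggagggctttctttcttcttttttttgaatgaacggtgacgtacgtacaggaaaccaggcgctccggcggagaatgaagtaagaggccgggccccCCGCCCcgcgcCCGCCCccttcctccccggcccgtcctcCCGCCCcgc
Bid: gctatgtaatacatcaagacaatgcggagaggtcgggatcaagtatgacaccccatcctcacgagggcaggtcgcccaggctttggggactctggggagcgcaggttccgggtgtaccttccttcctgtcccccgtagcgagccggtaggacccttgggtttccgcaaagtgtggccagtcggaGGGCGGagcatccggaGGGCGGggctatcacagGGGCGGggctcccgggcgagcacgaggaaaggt

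The printed *Bcl2l11* window held the FOXO motif once, as GTAAACA on the printed strand, 227 bases before the start, and the other of the gene's 2 windows held none. This motif was in 3.17% of the 32851 promoter windows of the same length and in 2 of the 14 windows of the members, the other being 1 of 3 windows of *Bbc3*, which did not pass the test. FOXO factors are known regulators of *Bcl2l11* in lymphocytes deprived of growth factors. The GC box, bound by SP1 factors, was found 3 times in this *Bcl2l11* window, 7 times in that of *Bcl2*, 3 times in that of *Bid* and once in that of *Mcl1*. It was in 9 of the 14 windows of the members and in 32.7% of all windows, and the member windows included genes that moved either way. The 9 windows had a G and C content from 62.8% to 81.6%, against a median of 52.4% over all windows. They include 3 of *Bbc3* and 2 of *Bcl2l11*, so they are not independent. The part of base content in the matches was not tested. The 3 windows of *Bcl2l1* held none of the motifs. The STAT motif (7.02% of all windows) and the SMAD motif (0.167%) had no match in any of the 14 member windows. A match describes these letters only.

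Among all genes tested, those whose values on the 4 arrays, each centred on its own mean, lay closest to *Bcl2l11* were *Zfp36*, a gene for an RNA-binding protein that hastens decay of cytokine transcripts (distance 0.034 on the log2 scale), and *Tgfbr2*, a TGF-β receptor gene (distance 0.063). Closest to *Mcl1* were *Pctp* (0.018) and *Zmynd11* (0.023), and closest to *Bid* were *Sdad1* (0.052) and *Lonp1* (0.054). *Bcl2* lay closest to *Gbp9* (0.092) and *Grap* (0.095), and *Bcl2l1* to *Smyd5* (0.086) and *Cox17* (0.127). With 4 arrays in 2 groups, likeness mostly means a difference of the same size.

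The rest of the mitochondrial death pathway was read from 5 lists of 62 genes, of which 51 were tested. Past the threshold, 7 were higher and 10 lower in Tc17 cells, with a median difference of -0.004, against 8.22% higher and 7.44% lower (15.7% together) and a median of 0.02 over all genes tested. The same shares are the background for the counts of each list. This count of 17 was 9 without Tc17 replicate 2 and 7 without CTL replicate 1. Whichever array was left out, *Casp6*, *Birc2*, *Trp53inp1*, *Sesn1*, *Perp*, *Tnfrsf10b* and *Aen* kept their calls. Of these, *Casp6*, *Sesn1*, *Tnfrsf10b* and *Aen* did not pass when every row of the table was tested.

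Of 11 tested genes among the other BCL2 relatives, 1 rose, 1 fell and 9 did not pass. *Bmf*, a BH3-only gene like *Bcl2l11*, read 4.19 and 3.98 in Tc17 cells, against 3.72 and 3.52 in CTLs. The *Bmf* difference of 0.47 ± 0.14 (SE, limma adjusted p = 0.0439) lost its call whichever array was left out. *Bcl2a1c*, of the near-identical A1 genes, read 3.77 and 3.86 in Tc17 cells, against 4.24 and 4.34 in CTLs (difference -0.47 ± 0.13, limma adjusted p = 0.0281), and that call too was lost each time. A further 3 probe sets are shared by several A1 genes and were left out, so the *Bcl2a1c* value is uncertain. The other 9 genes, among them the BH3-only genes *Hrk* (0.09) and *Bik* (0.14), had differences between -0.09 and 0.41 and did not pass.

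Of 10 genes of the apoptosome and caspases, 2 rose and 2 fell. *Casp6*, an executioner caspase gene, read 5.47 and 5.36 in Tc17 cells, against 4.73 and 4.82 in CTLs (difference 0.64 ± 0.13, limma adjusted p = 0.00564). *Casp9*, which encodes the caspase that the apoptosome activates, read 4.90 and 4.59 in Tc17 cells, against 4.33 and 4.19 in CTLs (0.48 ± 0.14, limma adjusted p = 0.0455), a call lost without Tc17 replicate 1 (0.32), CTL replicate 1 (0.55) or CTL replicate 2 (0.41). *Cycs*, the gene of cytochrome c, read 8.06 and 7.74 in Tc17 cells, against 8.58 and 8.50 in CTLs (-0.64 ± 0.14, limma adjusted p = 0.0105), and averaging its 3 probe sets gave -0.38, which did not pass. *Htra2*, which encodes a mitochondrial protease that opposes inhibitors of apoptosis, read 6.38 and 5.92 in Tc17 cells, against 6.87 and 6.80 in CTLs (-0.68 ± 0.16, limma adjusted p = 0.0129). Both *Cycs* (-0.48 and -0.60) and *Htra2* (-0.46 and -0.65) lost their calls without Tc17 replicate 2 and without CTL replicate 1.

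Of 6 inhibitors of apoptosis, *Birc2* alone passed. It encodes cIAP1, a ubiquitin ligase of TNF receptor signaling, and read 6.14 and 6.22 in Tc17 cells, against 5.24 and 5.18 in CTLs (0.96 ± 0.13, limma adjusted p = 4.38e-04). Averaging its 2 probe sets gave a smaller difference of 0.74, which still passed. *Xiap*, *Birc3*, *Birc5*, *Birc6* and *Cflar* had differences between -0.16 and 0.18 that did not pass.

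Genes around p53 went both ways. Of 11 tested, 2 rose and 4 fell. *Trp53inp1*, a p53 target gene, read 8.87 and 8.82 in Tc17 cells, against 6.24 and 6.57 in CTLs (2.44 ± 0.14, limma adjusted p = 1.15e-06), a 5.42-fold increase. *Sesn1*, a sestrin gene that p53 is also known to induce, rose by 1.04 ± 0.16 (limma adjusted p = 0.00114). *Perp*, a membrane protein gene induced by p53 (-0.87 ± 0.13, limma adjusted p = 0.00102), *Tnfrsf10b*, a receptor for TRAIL (-0.78 ± 0.14, limma adjusted p = 0.00359), and *Aen*, an apoptosis-enhancing nuclease gene (-0.73 ± 0.13, limma adjusted p = 0.00260), fell most. The fourth was *Mdm4*, an inhibitor of p53 and not its target (-0.54 ± 0.16, limma adjusted p = 0.0396), named after its value was seen, and its call was lost without Tc17 replicate 2 (-0.35) or CTL replicate 1 (-0.42). *Pmaip1* and *Bbc3*, p53 targets themselves, did not pass, as given above.

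Of 13 partners of BCL2 proteins and factors of their turnover, 1 rose and 3 fell. *Huwe1* encodes MULE, a ubiquitin ligase that marks MCL1 for destruction. It read 7.02 and 6.92 in Tc17 cells, against 7.65 and 7.28 in CTLs (-0.50 ± 0.15, limma adjusted p = 0.0448). *Marchf5*, a ubiquitin ligase gene of the outer mitochondrial membrane, read 5.83 and 5.78 in Tc17 cells, against 6.66 and 6.31 in CTLs (-0.68 ± 0.15, limma adjusted p = 0.00847). *Dynll2*, the gene of a dynein light chain that tethers BMF, fell by 0.47 ± 0.14 (limma adjusted p = 0.0435). *Ywhaz*, which encodes a 14-3-3 protein of the kind that holds phosphorylated BAD, rose by 0.42 ± 0.13 (limma adjusted p = 0.0432), but did not pass whichever array was left out (0.39 to 0.46), nor with its probe sets averaged (0.29). The call of *Marchf5* was lost without CTL replicate 1 (-0.51), and those of *Huwe1* and *Dynll2* were lost without Tc17 replicate 1, Tc17 replicate 2 or CTL replicate 1 (*Huwe1* -0.54, -0.45 and -0.31, *Dynll2* -0.51, -0.42 and -0.33). The genes of the mitochondrial channels *Vdac1* (-0.004) and *Vdac2* (-0.050) differed by little beside their SE of 0.13 and 0.14.

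**Figure D4:**
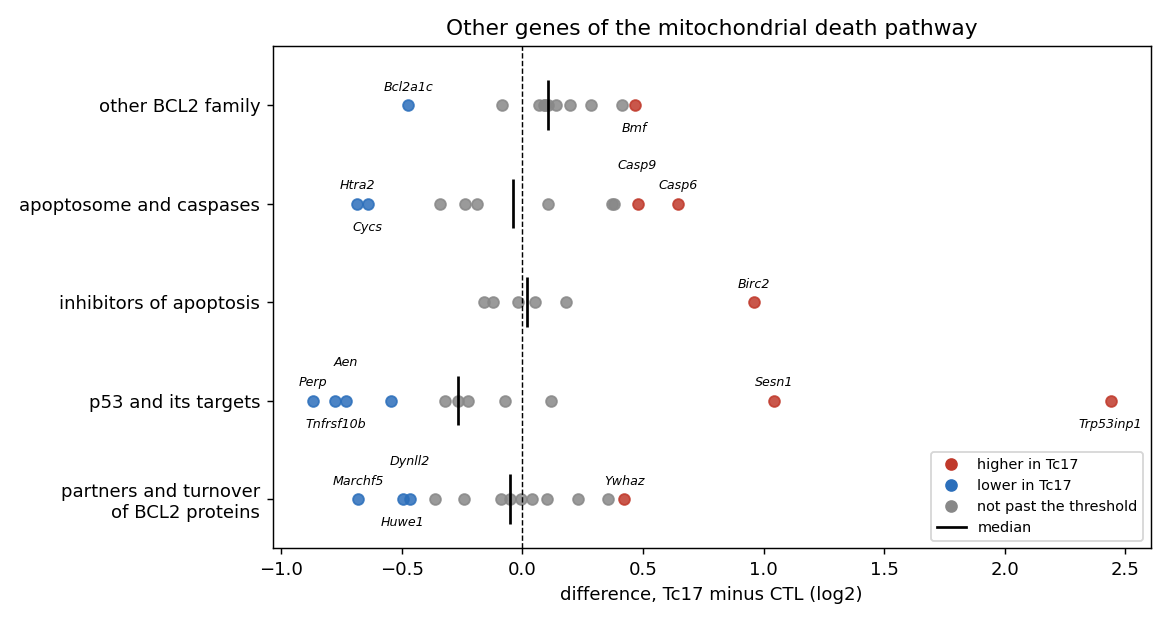
Difference between Tc17 and CTL arrays (log2, horizontal axis) of each tested gene of 5 lists around the BCL2 family. Circles are genes, red for higher and blue for lower in Tc17 cells past the threshold and grey for the rest, and black bars are list medians. *Trp53inp1* lies far to the right at 2.44, and the list medians lie between -0.27 and 0.10.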

How the data were processed

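Total RNA of 4 samples was amplified (2 cDNA rounds) and hybridised to Affymetrix arrays. The deposited values are RMA intensities, background-corrected, quantile-normalised and summarised by probe set. For RMA no version, settings or log base was found in the labels or methods, and the deposited values (1.18 to 13.70) were taken as log2. A shift of all transcripts cannot be seen after quantile normalisation. The table has 35557 rows, of which 21789 have 1 gene symbol, 1621 several and 12147 none, and the brightest probe set was kept for each of 19938 genes. Gene identifiers of 21698 rows matched RefSeq, which changed 0 symbols. Genes under the 25th percentile of gene means (2.59) were left out, and 14953 were tested.

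Groups came from the labels. The comparison, Tc17 minus CTL, used limma 3.58.1 (R 4.3.3), unpaired and two-sided, with Benjamini-Hochberg adjustment. The prior had 8.98 degrees of freedom and the arrays 2. Simulated data served as a check of the calculation. They were drawn with the spread that the fit itself assumes, so they do not test the calls made on these arrays. The members, lists and motifs were chosen with earlier results of these data known. Of each list, genes past the threshold were named, at most 3 up and 3 down (*Mdm4*, a further gene, was named after its value was seen), with the 2 genes nearest each member past it. Alternatives were other filters, moderation, scaling and probe set rules, the replicate block, an unmoderated fit and each array left out. An array left without a partner was assumed to vary like the other group. The number of arrays limits the precision. Tables and plots used Python 3.11.15, pandas 2.3.3 and matplotlib 3.10.9.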

Additional observations from a re-analysis of the deposited data

How the results depend on the processing

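Of 13 alternatives, the 5 members past the threshold kept direction and call under all but 2. With every row of the table tested, 684 rows passed and the count of higher members was 1, since *Mcl1* (0.65) did not pass, and 3 list genes passed. In an unmoderated least squares fit with 2 degrees of freedom, 0 genes, 0 members and 0 list genes passed (lowest adjusted p 0.158), while 2498 genes, 5 members and 12 list genes had an unadjusted p under 0.05. The differences in that fit were the same (*Bcl2* -0.995, *Bcl2l1* -1.28, *Mcl1* 0.65, *Bcl2l11* 1.23, *Bid* -0.83). With 1 array left out, 1421 (without Tc17 replicate 2) to 1924 genes and 7 (without CTL replicate 1) to 13 list genes passed, with 1538 genes without CTL replicate 1 and 9 list genes without Tc17 replicate 2, and 2 members were higher and 3 lower each time. *Bak1* then ranged from -0.16 to 0.22 and turned negative without Tc17 replicate 1 (-0.02) and CTL replicate 2 (-0.16), and *Bbc3* ranged from -0.27 to 0.19 and turned positive without Tc17 replicate 1 (0.19) and CTL replicate 1 (0.12). Over the genes tested, the deviations of same-numbered arrays from their group means correlated at 0.02. With 2 arrays per group, each pair gives this same value. No source states what a number marks, so the arrays were not treated as paired. With the replicate number as a block, 2322 genes passed, 2 members were higher and 3 lower, and 16 list genes passed, with *Ywhaz* lost (limma adjusted p = 0.0561) and no other call of a member or named list gene changed. The smallest p that exact permutation of 2 and 2 arrays allows is 0.333.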
